A study of Homo sapiens with 18 samples.

Results

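The 54 genes described here encode the machinery that licenses, opens and copies replication origins, together with the E2F and cyclin E genes that act upstream of it. They were taken as a list of names from the 40184 gene IDs of the deposited table. The list was chosen with earlier results of these data known and does not hold every subunit of each complex. Each name matched 1 Ensembl ID, and all 54 genes had at least 1 CPM (the read count of a gene relative to the scaled size of its library) in 3 or more libraries of each cell line. RNA-seq had been run on 3 human acute myeloid leukaemia lines after 24 h with 500 nM RMC-4550 or with its vehicle, DMSO. RMC-4550 is an inhibitor that locks the phosphatase SHP2 (encoded by PTPN11) in its closed state. Molm-14 and MV4-11 carry FLT3-ITD, an internal tandem duplication in a receptor kinase gene, and SKNO-1 carries KIT N822K. Each line with each of the 2 treatments made 1 group, so there were 6 groups, each of 3 cultures labelled as biological replicates. SKNO-1 was the only line given GM-CSF, at 10 ng/mL, so the KIT mutation, the growth factor and the line cannot be told apart, and each line stands for 1 cell line only.

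DNA replication is prepared in G1, when ORC, CDC6 and CDT1 load the MCM2 to MCM7 ring onto origins, and geminin blocks further loading once S phase has begun. The kinases CDC7 and CDK2 then join CDC45 and the GINS proteins to that ring to form the CMG helicase, behind which the polymerases, the PCNA clamp, its loaders and histone chaperones work. Most of these genes are transcribed at the G1 to S boundary by E2F factors, which RB-family proteins hold back until cyclin D and cyclin E kinases phosphorylate them. Mitogen signalling through RAS and ERK is one of the inputs to that step.

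The libraries held 17434810 to 19959917 reads. In 14 of the 18 libraries, 5.06% to 7.004% of reads came from mitochondrially encoded genes, and in the other 4 the share was 10.5% to 15.0%. Those 4 were replicate 2 of Molm-14 with RMC-4550, replicates 1 and 3 of MV4-11 with DMSO and replicate 1 of MV4-11 with RMC-4550. Several counts and medians that rest on them are given with and without them, and others only with them. Summed levels of 6 myeloid markers were 958 to 1439 CPM in every library, and all 4 T-cell markers (CD3D, CD3E, CD3G and CD2) had 3 reads or fewer everywhere. Of 5 epithelial markers, EPCAM, KRT19 and CDH1 had 3 reads or fewer everywhere, and KRT8 and KRT18 brought the summed level to 17.3 to 48.6 CPM. With RMC-4550, both were called higher for Molm-14, 0 for MV4-11 and 1 for SKNO-1. Summed levels of 4 B-cell markers were 1.41 to 19.1 CPM, of 4 fibroblast markers 2.41 to 17.6 CPM and of 4 erythroid markers at most 1.28 CPM. The part of these markers in the results was not tested.

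The libraries labelled MV4-11 had few genes of their own. Of 9416 genes that reached 10 CPM in MV4-11 with DMSO, 0 had less than 10% of it in both other lines, beside 3 of 9261 for Molm-14 and 32 of 9244 for SKNO-1. Under 1% of their Molm-14 level were 0 genes in MV4-11 and 69 in SKNO-1, and under 1% of their SKNO-1 level were 123 genes in Molm-14 and 13 in MV4-11. In the other direction, 61 MV4-11 genes were under 1% in Molm-14 and 29 in SKNO-1. The 69 genes that Molm-14 had and SKNO-1 lacked stood in each MV4-11 library at a median of 32.8% to 49.0% of their Molm-14 level. The 123 that SKNO-1 had and Molm-14 lacked stood there at a median of 43.4% to 57.9% of their SKNO-1 level. HOXA9, a homeobox gene high in leukaemias with KMT2A fusions, was at 137 CPM in Molm-14, 92.5 CPM in MV4-11 and 53.7 CPM in SKNO-1 with DMSO (means, n = 3). Whether each library holds only the line its label names was not tested, so comparisons between lines are comparisons of libraries under these labels. Where 3 values stand side by side without a line name, their order is Molm-14, MV4-11, SKNO-1.

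Replication and E2F genes were lower with RMC-4550 in all 3 lines. The number of the 54 genes that fell was 52 for Molm-14, 40 for MV4-11 and 50 for SKNO-1, and 40 fell in every line. A gene was called when its adjusted p in a limma fit over all libraries was under 0.05. That fit pools the spread of a gene over the 6 groups, so its standard error is the same in the 3 lines. It does not measure the spread within 1 line. Of all genes tested, the share called lower was 25.1% for Molm-14, 8.03% for MV4-11 and 16.2% for SKNO-1. Called higher were 21.5%, 5.85% and 10.8% of all genes, and 5.79% of the 12811 genes tested in all 3 lines were called lower in each line. By limma, 0 of the 54 genes were called higher in any line, and 0 were higher at an unadjusted p under 0.05. The test with voom weights also called 0 higher. The median log2 change (RMC-4550 minus DMSO) of the 54 genes was -1.16 for Molm-14, -0.61 for MV4-11 and -1.24 for SKNO-1, beside medians of -0.06, -0.01 and -0.05 over all genes tested. In these bulk cultures, fewer cells in S phase and less of each RNA per cell cannot be told apart.

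In Molm-14, 37 of the 54 genes were at least 2-fold lower by the fitted change, in SKNO-1 33 were and in MV4-11 8 were. The share of all genes tested that was 2-fold lower was not counted, so 2-fold counts have no such share beside them. Among libraries under 10% mitochondrial reads these counts were 33, 33 and 10 for Molm-14, SKNO-1 and MV4-11. All 3 treated libraries lay below all 3 DMSO libraries in 53 genes for Molm-14, 42 for MV4-11 and 54 for SKNO-1. The same held for 33.0%, 13.5% and 35.4% of all genes tested. The largest fall was in SKNO-1 for 30 genes, in Molm-14 for 22 and in MV4-11 for 2 (ORC3 and POLE). MV4-11 had the least negative change for 46 of the 54. Under 10% mitochondrial reads the largest fall was in SKNO-1 for 35, in Molm-14 for 17 and in MV4-11 for 2 (ORC2 and PRIM2), and MV4-11 had the smallest for 42. By role, the E2F and cyclin E genes had the most negative median in Molm-14 (-1.64), and chromatin assembly (-1.71), the CMG helicase (-1.68) and E2F and cyclin E (-1.66) had the most negative in SKNO-1. Replication protein A (RPA) had the least negative median in every line, with -0.63 for Molm-14, -0.15 for MV4-11 and -0.63 for SKNO-1 (-0.45 and -0.53 for Molm-14 and MV4-11 under 10% mitochondrial reads). The largest and smallest mean change of a role are by the mean of the absolute log2 changes in the 3 lines. When each library was left out in turn, 45 of the 52 calls for Molm-14, 33 of 40 for MV4-11 and 44 of 50 for SKNO-1 were kept every time, and the genes that lost a call are named with their values where each role is described.

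**Figure D1:**
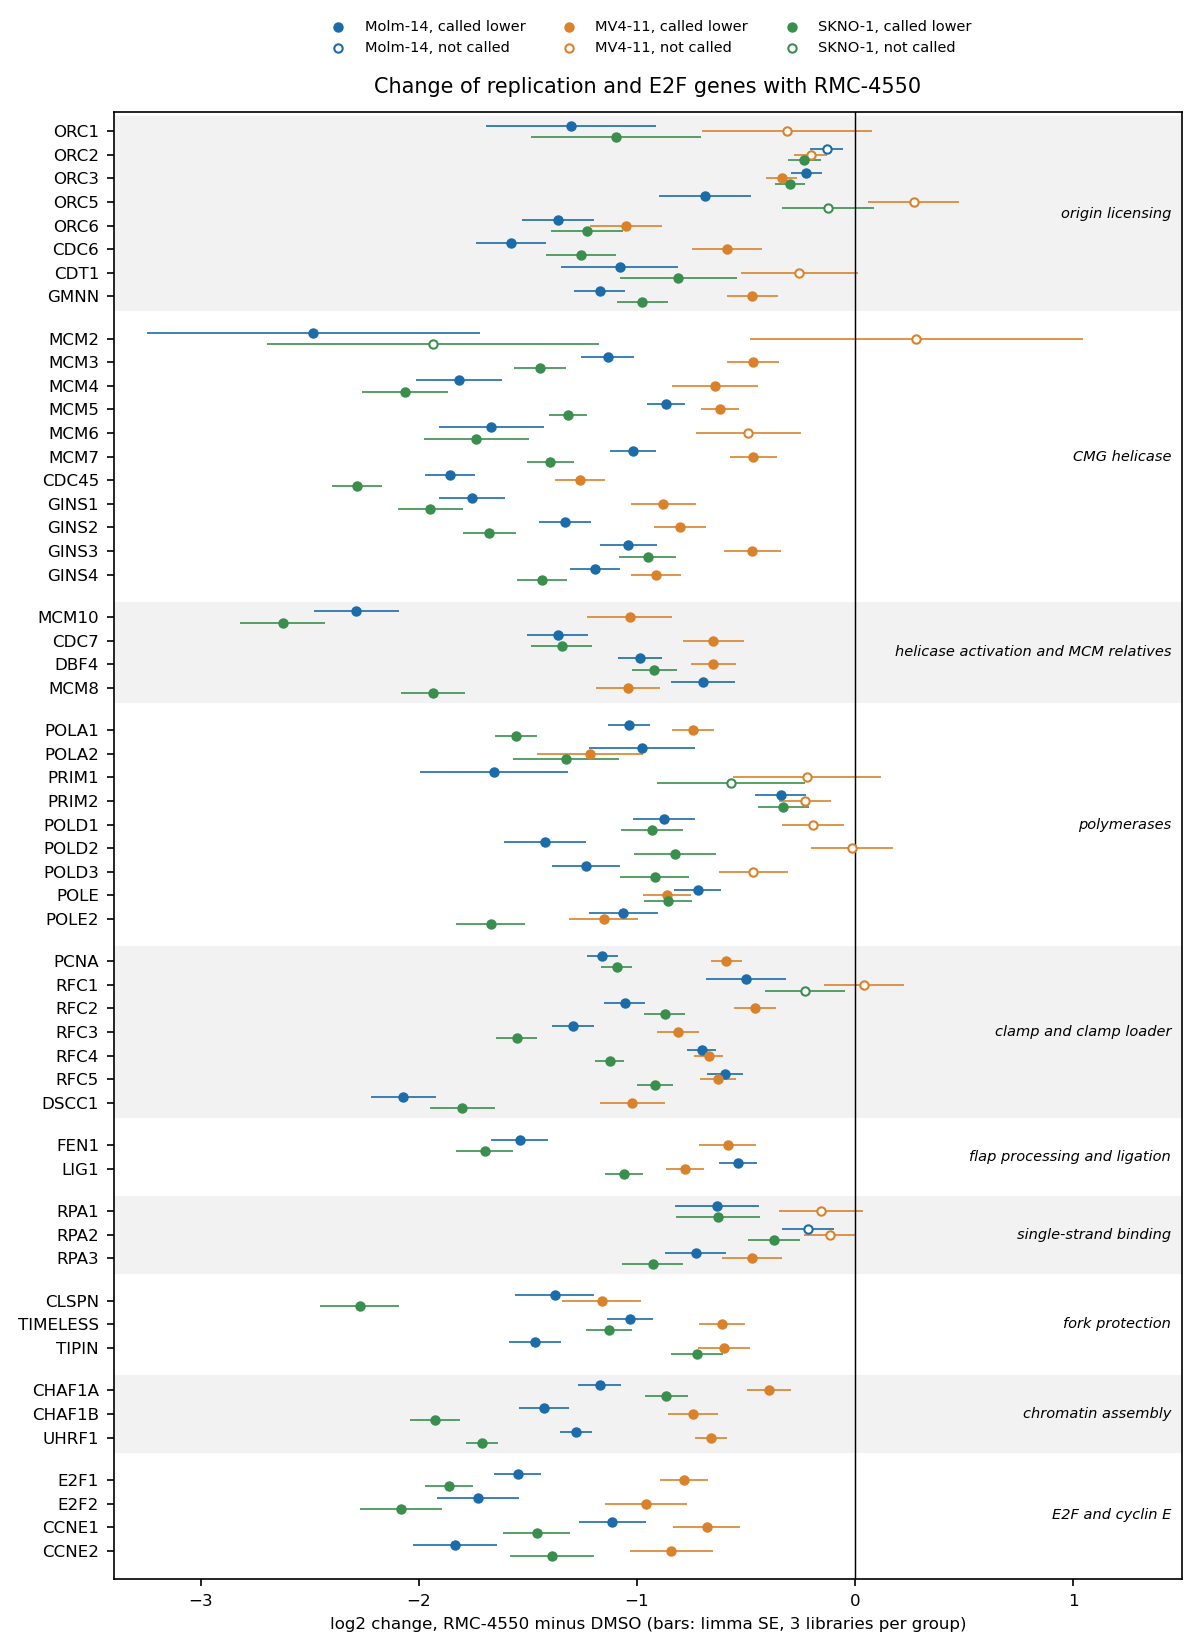
Log2 change (RMC-4550 minus DMSO, horizontal axis) of each of the 54 genes, grouped by role, in Molm-14 (blue), MV4-11 (orange) and SKNO-1 (green). Points are limma estimates from 3 libraries per group, and bars are 1 standard error, pooled over all groups and the same in the 3 lines. Filled points were called lower and open points were not called. Nearly all points lie left of 0, and 46 genes have their least negative change in MV4-11.

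Promoter windows of RefSeq (GRCh38.p14, 250 bases before to 50 after the gene start) were matched by symbol for 46 of the 54 genes. The E2F letters searched were TTTCCCGC, TTTCGCGC, TTTGCCGC and TTTGGCGC on either strand. They were in 22 of the 46 windows (47.8%), beside 3.31% of all 35116 windows and 5.27% of the 11019 windows of genes in the fit. Of the 8 CMG helicase genes with a window, 7 held them (MCM2, MCM3, MCM6, MCM7, GINS1, GINS2 and GINS3), as did 4 of 8 polymerase genes and 2 of 3 E2F and cyclin E genes. CCAAT was in 27 windows (58.7%, beside 34.6% of all windows and 36.4% of the windows of genes in the fit). TTTGAA, the core of the CHR element of many mitotic genes, was in 1 window (2.17%, DBF4). Its share was 15.2% of all windows and 9.99% of the windows of genes in the fit.

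The sequences below are the 200 bases before the start of 5 genes whose levels are described next, read 5′ to 3′ on the gene's strand, with E2F letters in capitals. E2F1, E2F2, MCM6 and PCNA show the letters in 3 roles. MCM10, which had the most negative change of all 54 genes in SKNO-1, shows a window with none. In MCM6, 2 stretches each join a match on the gene's strand (TTTGGCGC) to an overlapping match to TTTCGCGC on the other strand.
E2F1 (chr20:33686386-33686585, minus strand): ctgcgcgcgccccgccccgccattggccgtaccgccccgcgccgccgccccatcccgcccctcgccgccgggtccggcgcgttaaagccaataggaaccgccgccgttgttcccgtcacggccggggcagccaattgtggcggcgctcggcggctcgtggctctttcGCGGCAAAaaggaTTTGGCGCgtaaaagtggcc
E2F2 (chr1:23531234-23531433, minus strand): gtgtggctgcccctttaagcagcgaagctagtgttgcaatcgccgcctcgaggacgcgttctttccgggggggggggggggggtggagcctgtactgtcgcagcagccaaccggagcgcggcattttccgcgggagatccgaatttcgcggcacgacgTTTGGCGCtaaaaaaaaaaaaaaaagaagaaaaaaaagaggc
MCM6 (chr2:135876444-135876643, minus strand): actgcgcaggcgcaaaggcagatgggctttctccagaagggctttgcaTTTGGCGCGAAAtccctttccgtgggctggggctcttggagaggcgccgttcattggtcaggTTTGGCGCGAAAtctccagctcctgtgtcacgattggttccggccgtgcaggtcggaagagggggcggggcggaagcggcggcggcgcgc
PCNA (chr20:5126623-5126822, minus strand): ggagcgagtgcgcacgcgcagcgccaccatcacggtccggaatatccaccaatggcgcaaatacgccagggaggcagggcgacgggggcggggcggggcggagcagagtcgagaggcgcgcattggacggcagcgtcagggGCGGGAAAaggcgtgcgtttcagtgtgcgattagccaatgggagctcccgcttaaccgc
MCM10 (chr10:13161358-13161557, plus strand): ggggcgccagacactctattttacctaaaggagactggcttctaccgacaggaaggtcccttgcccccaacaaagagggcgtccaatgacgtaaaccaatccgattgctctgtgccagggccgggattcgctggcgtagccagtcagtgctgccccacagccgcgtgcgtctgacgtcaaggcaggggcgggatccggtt
In E2F1 the matches began 33 and 20 bases before the start, in E2F2 42 and in PCNA 59. Genes with and without the letters had like medians in Molm-14 (-1.15 for 22 genes and -1.14 for 24). In MV4-11 the medians were -0.76 and -0.53, and in SKNO-1 they were -1.55 and -0.93. These are descriptions of letters in a window and were not tested.

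E2F1, the best known activator of the S-phase programme, was among the genes with the clearest falls. In Molm-14 it was read at 31.8, 36.6 and 33.98 CPM with DMSO and 11.5, 12.7 and 10.7 CPM with RMC-4550. The MV4-11 values were 32.8, 33.8 and 31.7 CPM with DMSO and 18.7, 18.2 and 20.3 CPM with RMC-4550. The SKNO-1 values were 29.6, 32.3 and 30.3 CPM with DMSO and 7.17, 8.58 and 9.75 CPM with RMC-4550. Treated and DMSO libraries did not overlap in any line, and the ranges of the 3 DMSO groups overlapped. The log2 changes were -1.55 ± 0.11, -0.78 ± 0.11 and -1.86 ± 0.11 (SE) in the 3 lines, with limma adjusted p of 3.6e-08, 1.4e-04 and 1.1e-08.

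E2F2, a second activator E2F, was lower still relative to DMSO in each line. It had 14.2, 16.5 and 16.8 CPM with DMSO and 5.79, 3.59 and 5.09 CPM with RMC-4550 in Molm-14. In MV4-11 it had 12.4, 15.3 and 9.99 CPM with DMSO and 5.18, 6.43 and 7.71 CPM with RMC-4550, and in SKNO-1 10.5, 11.3 and 10.5 CPM with DMSO and 2.41, 2.55 and 2.62 CPM with RMC-4550. The treated SKNO-1 libraries had the lowest E2F2 values of all 18. Its log2 changes of -1.73 ± 0.19, -0.96 ± 0.19 and -2.08 ± 0.19 were the largest, on the mean over the lines, of the 4 genes of this role (limma adjusted p 2.7e-06, 0.0026 and 7.0e-07).

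The cyclins E activate CDK2 at the G1 to S boundary. CCNE1 fell from 10.2 ± 0.681 to 4.70 ± 0.574 CPM in Molm-14 (SD, n = 3), from 10.1 ± 1.23 to 6.30 ± 0.524 in MV4-11 and from 9.08 ± 0.659 to 3.33 ± 0.639 in SKNO-1. Its log2 changes were -1.11 ± 0.15, -0.68 ± 0.15 and -1.46 ± 0.15, the smallest of the role on the mean over the lines. CCNE2 was read at 13.3, 11.6 and 13.3 CPM with DMSO against 4.10, 3.14 and 3.45 CPM with RMC-4550 in Molm-14 and at 5.58, 5.14 and 5.84 CPM with DMSO against 2.17, 1.90 and 2.21 CPM with RMC-4550 in SKNO-1. In MV4-11 its DMSO values were 5.87, 10.02 and 5.92 CPM, and the highest of them was the library with few mitochondrial reads. The treated MV4-11 values of 3.27, 4.25 and 4.31 CPM lay below all of these. CCNE2 changed by -1.83 ± 0.19, -0.84 ± 0.19 and -1.39 ± 0.19 (limma adjusted p 1.8e-06, 0.0074 and 5.2e-05). CCNE2 shares exon sequence with INTS8 on the opposite strand, which was more abundant, and the strand used in counting is not given in the sources used here.

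Of the 8 licensing genes, which load the helicase at the origin recognition complex (ORC), 7, 4 and 7 fell, with median log2 changes of -1.13, -0.32 and -0.89. Under 10% mitochondrial reads the medians were -0.81, -0.66 and -0.89, so that the order of Molm-14 and SKNO-1 changed. CDC6, the ATPase that joins ORC to recruit the MCM ring, was at 46.8, 48.2 and 47.1 CPM with DMSO and 17.98, 12.04 and 18.4 CPM with RMC-4550 in Molm-14. In MV4-11 it was at 28.8, 42.9 and 34.8 CPM with DMSO and 19.8, 25.8 and 24.9 CPM with RMC-4550, and in SKNO-1 at 54.7, 54.5 and 58.2 CPM with DMSO and 25.4, 21.99 and 22.7 CPM with RMC-4550. No treated library overlapped a DMSO library of its line. CDC6 changed by -1.58 ± 0.16, -0.59 ± 0.16 and -1.26 ± 0.16 (SE), with limma adjusted p of 1.4e-06, 0.023 and 2.6e-05. Omitting DMSO replicate 2 (-0.44) or 3 (-0.59), or treated replicate 1 (-0.47), ended the call of CDC6 in MV4-11.

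CDT1 brings the MCM ring to ORC, and GMNN encodes geminin, its inhibitor. CDT1 was read at 153, 159.7 and 158 CPM with DMSO and 90.8, 46.4 and 96.7 CPM with RMC-4550 in Molm-14 and at 285, 292 and 308 CPM with DMSO and 155, 186 and 165 CPM with RMC-4550 in SKNO-1. It fell in both lines, by a log2 change of -1.08 ± 0.27 (limma adjusted p 0.0037) and -0.81 ± 0.27 (adjusted p 0.034). In MV4-11 it was read at 121, 221 and 115 CPM with DMSO and 88.4, 133 and 154 CPM with RMC-4550, and the groups overlapped. With a log2 change of -0.25, CDT1 missed the threshold there (adjusted p 0.6), and under 10% mitochondrial reads it was called, with -0.63. GMNN was at 48.3, 50.1 and 46.6 CPM with DMSO and 19.6, 23.7 and 21.3 CPM with RMC-4550 for Molm-14, at 25.2, 33.6 and 27.2 CPM with DMSO and 20.2, 21.2 and 20.2 CPM with RMC-4550 for MV4-11 and at 27.7, 24.6 and 24.7 CPM with DMSO and 14.9, 11.4 and 13.01 CPM with RMC-4550 for SKNO-1. So the loader and its inhibitor were both lower in Molm-14 and SKNO-1, with GMNN changes of -1.17 ± 0.12, -0.47 ± 0.12 and -0.97 ± 0.12 in the 3 lines (limma adjusted p 1.2e-06, 0.013 and 1.5e-05). The call of CDT1 in SKNO-1 was lost on leaving out any of the 6 SKNO-1 libraries (-0.75 to -0.88), and that of GMNN in MV4-11 without treated replicate 3 (-0.46).

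Within ORC, the log2 changes of the subunits ranged widely. ORC6, the subunit least tightly bound to the others, had 31.7, 31.4 and 30.5 CPM with DMSO and 11.2, 15.1 and 10.5 CPM with RMC-4550 in Molm-14. It had 29.8, 24.2 and 29.5 CPM with DMSO and 16.95, 13.2 and 10.7 CPM with RMC-4550 in MV4-11 and 19.7, 18.6 and 18.4 CPM with DMSO and 7.87, 7.01 and 9.47 CPM with RMC-4550 in SKNO-1. ORC6 fell in every line (-1.36 ± 0.17, -1.05 ± 0.17 and -1.23 ± 0.17, limma adjusted p 8.6e-06, 4.3e-04 and 4.4e-05), the largest mean change among the licensing genes. ORC2, a core subunit present through the cell cycle, had the smallest mean change. It was at 67.1, 61.6 and 63.3 CPM with DMSO against 57.7, 59.3 and 58.5 CPM with RMC-4550 in Molm-14 and at 41.5, 41.3 and 38.8 CPM with DMSO against 37.6, 33.9 and 32.04 CPM with RMC-4550 in SKNO-1. Its log2 changes were -0.13, -0.20 and -0.23, and only the one in SKNO-1 was called (limma adjusted p 0.17, 0.091 and 0.031). The core subunit ORC3 fell in every line, with log2 changes of -0.22, -0.34 and -0.30. ORC1, the subunit that cycles with G1, fell in Molm-14 and SKNO-1 (-1.30 and -1.09). In MV4-11 with DMSO its values of 20.7, 57.5 and 21.01 CPM overlapped those with RMC-4550 (13.3, 32.2 and 30.4 CPM). ORC5 had log2 changes of -0.69 ± 0.21, 0.27 ± 0.21 and -0.12 ± 0.21 and was called lower only in Molm-14 (adjusted p 0.014). It was called higher in MV4-11 when replicate 2 with DMSO was left out, with a log2 change of 0.56 and a limma adjusted p of 0.030. Some ORC calls were lost on leaving out 1 library. Without treated replicate 2, Molm-14 lost those of ORC1 (-0.89) and ORC5 (-0.47), and without DMSO replicate 2 (-0.21) or treated replicate 1 (-0.20) it lost that of ORC3. In SKNO-1, ORC2 lost its call without DMSO replicate 1 or 2 or treated replicate 2 or 3 (-0.18 to -0.22). ORC1 lost its call there on leaving out any 1 of the line's 6 libraries (-1.06 to -1.12). The same held for any 1 Molm-14 DMSO library or MV4-11 treated replicate 3 (-1.09 each). ORC1 in SKNO-1 was at 70.4 to 72.1 CPM with DMSO and 31.6 to 34.7 CPM with RMC-4550. Its standard error of 0.39 is shared by the 3 lines.

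The 11 genes of the CMG helicase (MCM2 to MCM7, CDC45 and GINS1 to GINS4) gave 11 falls for Molm-14, 9 for MV4-11 and 10 for SKNO-1. Their median log2 changes were -1.33, -0.62 and -1.68, and -1.42 and -0.93 for Molm-14 and MV4-11 under 10% mitochondrial reads. CDC45, which is recruited when the helicase is activated, had the largest mean change. Its values were 41.4, 42.9 and 42.1 CPM with DMSO and 10.4, 12.04 and 12.4 CPM with RMC-4550 in Molm-14. In MV4-11 they were 35.5, 37.2 and 36.3 CPM with DMSO and 18.1, 14.6 and 13.1 CPM with RMC-4550, and in SKNO-1 29.8, 30.9 and 28.5 CPM with DMSO and 5.46, 6.68 and 6.21 CPM with RMC-4550. The MV4-11 DMSO libraries lay close together whatever their mitochondrial share. CDC45 changed by -1.86 ± 0.11, -1.26 ± 0.11 and -2.28 ± 0.11 (limma adjusted p 9.6e-09, 2.1e-06 and 3.3e-09), which is 3.62-fold, 2.40-fold and 4.86-fold lower.

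Of the MCM ring, MCM4 was read at 355, 351 and 364 CPM with DMSO and 123, 71.7 and 118 CPM with RMC-4550 in Molm-14. Its values were 213, 337 and 209 CPM with DMSO and 127, 181 and 172 CPM with RMC-4550 in MV4-11 and 308, 303 and 296 CPM with DMSO and 74.4, 68.4 and 73.7 CPM with RMC-4550 in SKNO-1. The treated SKNO-1 libraries lay within a narrow range, 4.18-fold below their controls, while MV4-11 spread more widely in both groups. MCM4 changed by -1.81 ± 0.20, -0.64 ± 0.20 and -2.06 ± 0.20 (limma adjusted p 2.7e-06, 0.04 and 1.3e-06). MCM6, which sits between MCM2 and MCM4 in the ring, had 114, 116 and 123 CPM with DMSO against 46.6, 27.2 and 39.9 CPM with RMC-4550 in Molm-14. In SKNO-1 it had 127, 117 and 121 CPM with DMSO against 35.9, 37.1 and 36.4 CPM with RMC-4550. It fell in both lines (-1.67 ± 0.24 and -1.74 ± 0.24). In MV4-11 its values were 55.8, 115 and 59.8 CPM with DMSO and 38.1, 63.3 and 57.3 CPM with RMC-4550, and the groups overlapped (log2 change -0.49, adjusted p 0.21). It was called there, with -0.93, among libraries under 10% mitochondrial reads. The MV4-11 call of MCM4 was marginal: it was lost on leaving out any 1 Molm-14 DMSO library or any 1 SKNO-1 library (-0.64), and without DMSO replicate 2 (-0.42) or treated replicate 1 (-0.48) or 3 (-0.70) of MV4-11.

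MCM3, MCM5 and MCM7 fell in every line. MCM3 went from 204 ± 4.98 to 93.5 ± 11.6 CPM in Molm-14 (SD, n = 3), from 123 ± 22.1 to 88.2 ± 9.83 in MV4-11 and from 109 ± 2.48 to 40.02 ± 2.87 in SKNO-1. MCM5 went from 117 ± 8.88 to 64.3 ± 5.50, from 131 ± 10.6 to 85.1 ± 6.41 and from 196 ± 6.05 to 78.6 ± 1.48 CPM in the same order. MCM7 went from 214 ± 11.1 to 106 ± 2.28, from 171 ± 33.7 to 123 ± 11.5 and from 216 ± 1.81 to 81.97 ± 1.99 CPM. For all 3 genes the fall was largest in SKNO-1. Their log2 changes were -1.13 ± 0.12, -0.47 ± 0.12 and -1.44 ± 0.12 for MCM3, -0.87 ± 0.09, -0.62 ± 0.09 and -1.32 ± 0.09 for MCM5 and -1.02 ± 0.11, -0.47 ± 0.11 and -1.40 ± 0.11 for MCM7, with limma adjusted p of at most 0.015, that of MCM3 in MV4-11. Without treated replicate 1, MCM3 in MV4-11 lost its call (-0.38). MCM7 shares exon sequence with AP4M1.

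MCM2 had the largest standard error of the 6 ring genes, pooled over the groups and so not a measure of the spread within SKNO-1. In SKNO-1, where no library had a high mitochondrial share, it was read at 119, 117 and 114 CPM with DMSO and 29.7, 33.5 and 28.4 CPM with RMC-4550. In Molm-14 the values were 70.1, 81.7 and 83.1 CPM with DMSO and 31.3, 3.46 and 24.8 CPM with RMC-4550, with the lowest in replicate 2. In MV4-11 they were 14.4, 86.8 and 10.7 CPM with DMSO and 12.5, 44.4 and 43.4 CPM with RMC-4550. The libraries at 3.46 to 14.4 CPM were the 4 with the high mitochondrial share, and all others lay between 24.8 and 119 CPM. The log2 changes were -2.48 ± 0.76, 0.28 ± 0.76 and -1.94 ± 0.76, and only the Molm-14 change was called (limma adjusted p 0.014, 0.86 and 0.072). Without replicate 2 of treated Molm-14 that change was -1.48 and its adjusted p 0.080. Among libraries under 10% mitochondrial reads, MCM2 changed by -1.48, -0.98 and -1.94, and all 3 were called. MCM2 shares exon sequence with TPRA1 on the opposite strand.

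The 4 GINS genes fell in all 3 lines. GINS1 changed by -1.76 ± 0.15, -0.88 ± 0.15 and -1.95 ± 0.15 and GINS3, with the smallest mean change of the helicase genes, by -1.04 ± 0.13, -0.47 ± 0.13 and -0.95 ± 0.13. GINS3 was read at 10.8, 13.6 and 12.6 CPM with DMSO against 5.74, 5.64 and 6.56 CPM with RMC-4550 in Molm-14. GINS2 and GINS4 lay between, with log2 changes of -1.33, -0.80 and -1.68 and -1.19, -0.91 and -1.43. In no line did treated and DMSO libraries of a GINS gene overlap. In MV4-11 the call of GINS3 was lost without DMSO replicate 2 or 3, or without treated replicate 1 or 3 (-0.37 to -0.46). GINS2 shares exon sequence with GSE1, which was more abundant.

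**Figure D2:**
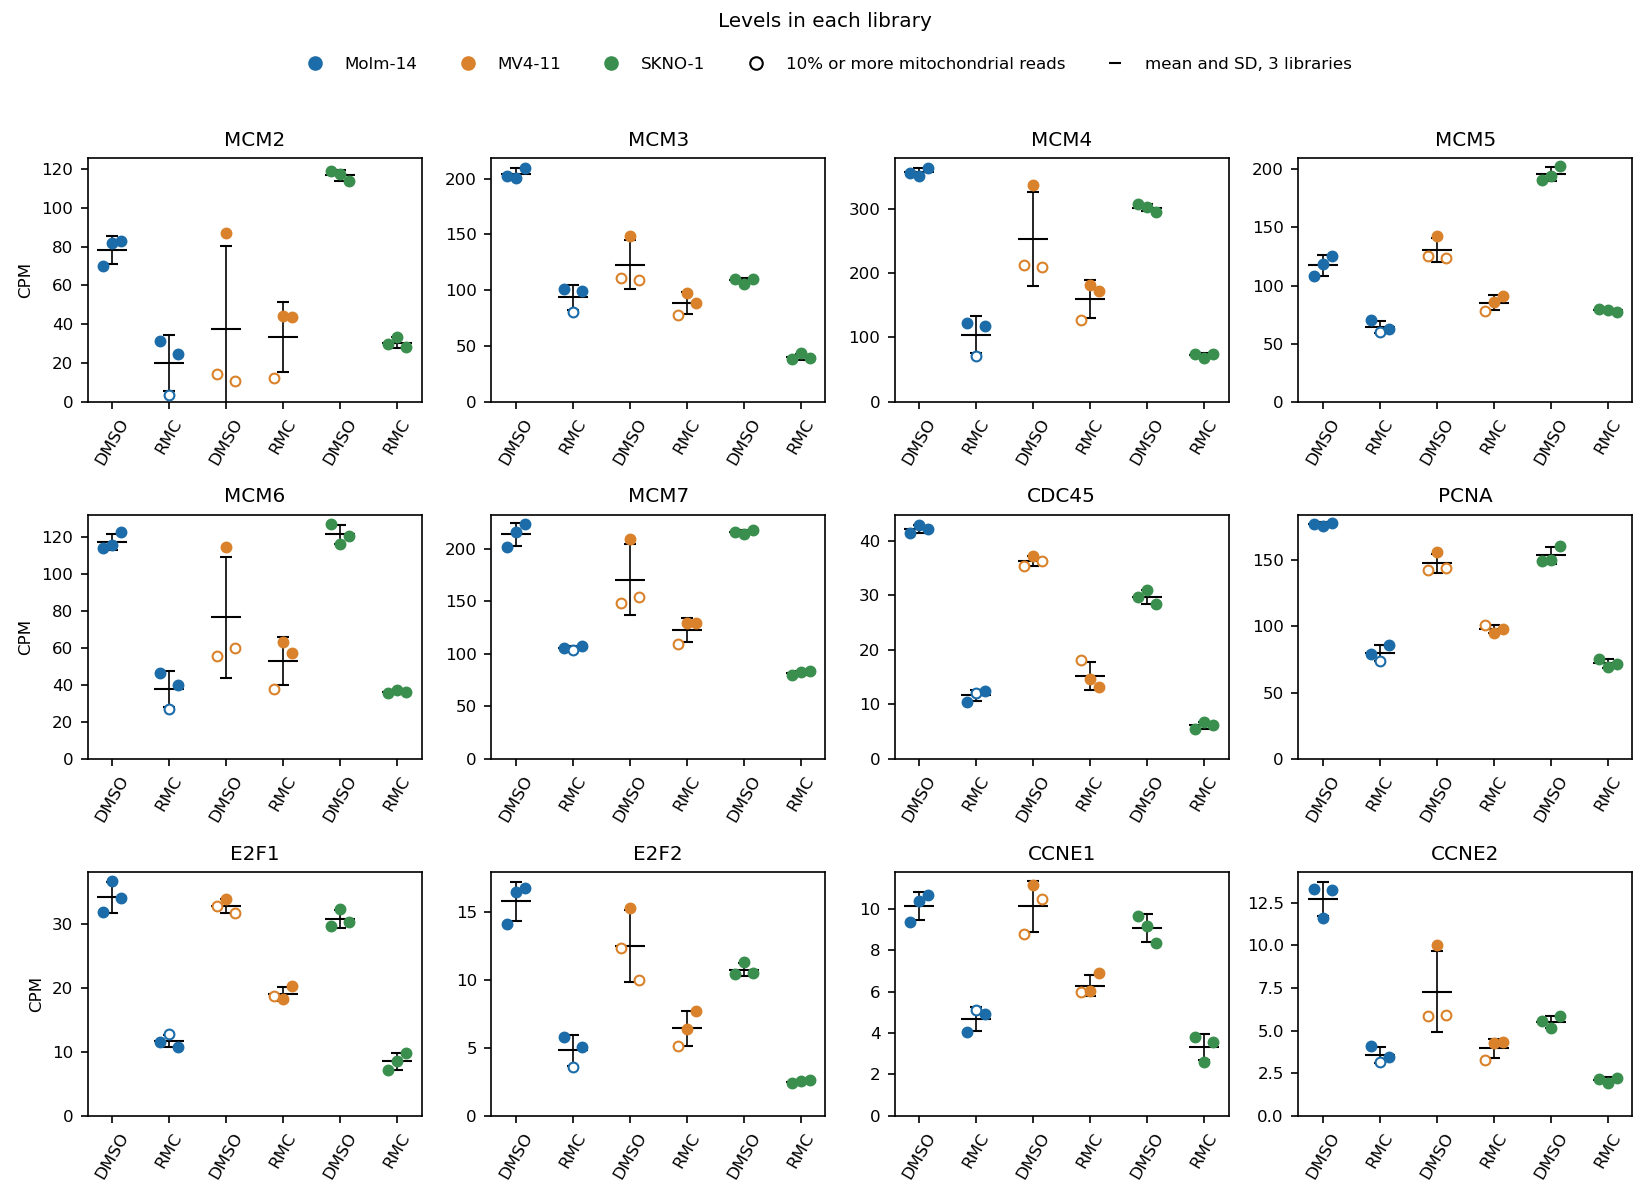
Level (CPM) of 12 genes in each of the 18 libraries, by line and treatment. Points are libraries, open points are those with 10% or more mitochondrial reads, and black lines give the mean and SD of 3 libraries. MCM2 in MV4-11 with DMSO runs from 10.7 to 86.8 CPM, whereas CDC45 in the same libraries runs from 35.5 to 37.2 CPM. The SD bar of MCM2 there is cut at 0.

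Among the genes that fire the helicase, MCM10, which helps the assembled CMG unwind DNA, had the most negative mean change of all 4. It was read at 36.4, 36.2 and 40.8 CPM with DMSO and 9.07, 6.15 and 8.20 CPM with RMC-4550 in Molm-14. In MV4-11 it was at 17.9, 27.3 and 19.4 CPM with DMSO and 8.19, 13.8 and 9.74 CPM with RMC-4550, and in SKNO-1 at 22.8, 21.8 and 22.3 CPM with DMSO and 3.52, 4.18 and 3.17 CPM with RMC-4550. Each treated value lay below each DMSO value of its line. MCM10 changed by -2.29 ± 0.20, -1.03 ± 0.20 and -2.62 ± 0.20 (limma adjusted p 2.3e-07, 0.0019 and 1.1e-07), or 4.88-fold, 2.05-fold and 6.16-fold lower. CDC7 and its activator DBF4 form the kinase that phosphorylates the MCM ring. CDC7 changed by -1.36, -0.65 and -1.34 and DBF4 by -0.99 ± 0.10, -0.65 ± 0.10 and -0.92 ± 0.10, the smallest mean change of the role, and both fell in all 3 lines.

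MCM8, a relative of the ring proteins that works in recombination repair rather than at origins, differed between the lines. Molm-14 had 20.7, 20.7 and 19.3 CPM with DMSO and 11.97, 14.5 and 11.1 CPM with RMC-4550. MV4-11 had 17.3, 15.5 and 16.6 CPM with DMSO and 7.18, 8.30 and 8.53 CPM with RMC-4550, and SKNO-1 10.6, 10.8 and 10.2 CPM with DMSO and 3.15, 2.09 and 3.13 CPM with RMC-4550. With DMSO, SKNO-1 had a lower level of MCM8 than Molm-14 (log2 difference -0.94), and the treated SKNO-1 values were the lowest of all. MCM8 changed by -0.70 ± 0.15, -1.04 ± 0.15 and -1.93 ± 0.15 (limma adjusted p 0.0012, 1.7e-04 and 1.4e-07).

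The 9 polymerase genes were called lower in 9, 4 and 8 cases, with median log2 changes of -1.04, -0.47 and -0.92. The medians for Molm-14 and MV4-11 were -1.09 and -0.75 under 10% mitochondrial reads. Polymerase alpha and primase start each new strand. POLA1, the catalytic subunit, was at 35.8, 34.8 and 40.8 CPM with DMSO against 18.5, 17.7 and 18.04 CPM with RMC-4550 in Molm-14. It was at 24.3, 31.8 and 25.9 CPM with DMSO against 16.1, 16.4 and 16.2 CPM in treated MV4-11 and at 32.2, 30.01 and 29.9 CPM with DMSO against 10.5, 10.3 and 10.5 CPM in treated SKNO-1. POLA1 fell in every line, by -1.04 ± 0.10, -0.74 ± 0.10 and -1.55 ± 0.10 on the log2 scale (limma adjusted p 6.0e-07, 8.1e-05 and 2.1e-08). The regulatory subunit POLA2 fell too (-0.98, -1.22 and -1.33). The primase subunits followed another order. PRIM1 fell in Molm-14, where it went from 21.2, 21.7 and 19.999 to 9.35, 3.46 and 8.99 CPM. In SKNO-1 it missed the threshold with -0.57 (adjusted p 0.24), although 15.04, 12.1 and 12.9 CPM all lay below 21.8, 19.6 and 17.9 CPM. In MV4-11 its DMSO values of 9.42, 19.3 and 8.32 CPM overlapped the treated ones (7.29, 13.1 and 10.05 CPM). PRIM1 shares exon sequence with NACA on the same strand, which was far more abundant. PRIM2 had the smallest mean change of the role (-0.34 ± 0.12, -0.23 ± 0.12 and -0.33 ± 0.12). Its call in Molm-14 was lost without DMSO replicate 1 or 3 or treated replicate 2 (-0.24 to -0.34). In SKNO-1, at an adjusted p of 0.049, it was lost on leaving out SKNO-1 DMSO replicate 2 or 3, any 1 treated SKNO-1 library, any 1 Molm-14 DMSO library, Molm-14 treated replicate 3, or replicate 3 of either MV4-11 group (-0.27 to -0.38).

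Polymerases delta and epsilon copy the lagging and the leading strand. POLE2, the second subunit of polymerase epsilon, had 20.4, 17.99 and 18.3 CPM with DMSO and 8.09, 12.04 and 7.52 CPM with RMC-4550 in Molm-14. It had 20.9, 17.9 and 21.4 CPM with DMSO and 10.7, 7.75 and 8.78 CPM with RMC-4550 in MV4-11 and 15.5, 15.7 and 15.96 CPM with DMSO and 4.63, 5.29 and 4.87 CPM with RMC-4550 in SKNO-1. No treated library reached the DMSO range. POLE2 changed by -1.06 ± 0.16, -1.15 ± 0.16 and -1.67 ± 0.16 (limma adjusted p 5.9e-05, 1.2e-04 and 1.2e-06), the largest mean change among the polymerases. The catalytic subunit POLE fell in every line, by log2 changes of -0.72, -0.86 and -0.86. POLD1, POLD2 and POLD3 of polymerase delta fell in Molm-14 and SKNO-1 and were not called in MV4-11. All 3 were called there under 10% mitochondrial reads, with -0.38, -0.26 and -0.70. The log2 changes were -0.87, -0.19 and -0.93 for POLD1, -1.42 ± 0.19, -0.01 ± 0.19 and -0.82 ± 0.19 for POLD2 and -1.23, -0.47 and -0.92 for POLD3. POLD2 in MV4-11 was at 82.8, 113 and 77.9 CPM with DMSO and at 80.5, 92.5 and 95.3 CPM with RMC-4550, which overlapped. POLD3 was called in MV4-11 without DMSO replicate 3 (-0.57) or without Molm-14 treated replicate 2 (-0.47).

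PCNA, the ring-shaped clamp that holds the polymerases on DNA, was measured with little spread. It had 178, 176 and 178 CPM with DMSO and 79.1, 73.7 and 85.97 CPM with RMC-4550 in Molm-14. The values were 142, 156 and 144 CPM with DMSO and 101, 95.02 and 97.8 CPM with RMC-4550 in MV4-11 and 149.6, 150.5 and 161 CPM with DMSO and 75.6, 68.9 and 71.7 CPM with RMC-4550 in SKNO-1. The lowest DMSO value of each line lay well above its highest treated value. PCNA changed by -1.16 ± 0.07, -0.59 ± 0.07 and -1.09 ± 0.07 (limma adjusted p 1.0e-08, 4.3e-05 and 2.9e-08). The clamp loader is built of RFC1 to RFC5, and DSCC1 belongs to an alternative loader that acts in sister chromatid cohesion. DSCC1 had the largest mean change of the 7 genes, with 20.6, 19.3 and 22.2 CPM with DMSO against 5.58, 3.91 and 5.37 CPM with RMC-4550 in Molm-14 and 14.9, 14.2 and 15.3 CPM with DMSO against 4.35, 4.27 and 4.09 CPM with RMC-4550 in SKNO-1. It changed by -2.07 ± 0.15, -1.02 ± 0.15 and -1.80 ± 0.15 (limma adjusted p 4.7e-08, 2.3e-04 and 3.0e-07).

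The large subunit RFC1 had the smallest mean change of the loader genes. RFC1 was at 126, 125 and 125 CPM with DMSO against 102, 66.9 and 102 CPM with RMC-4550 in Molm-14 and was called lower there (-0.50 ± 0.18, adjusted p 0.036). Its changes of 0.04 in MV4-11 and -0.23 in SKNO-1 were not called, and the Molm-14 call was lost on leaving out any 1 DMSO library or treated replicate 2 of that line (-0.30 to -0.50). The 4 small subunits fell in every line. RFC2 changed by -1.06, -0.46 and -0.87, RFC3 by -1.29, -0.81 and -1.55, RFC4 by -0.70, -0.67 and -1.13 and RFC5 by -0.60, -0.63 and -0.92. RFC4 overlaps EIF4A2, which was more abundant, on the opposite strand.

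FEN1 trims the flaps of Okazaki fragments and LIG1 seals the nicks. FEN1 had 58.3, 62.6 and 63.2 CPM with DMSO and 21.4, 18.8 and 23.3 CPM with RMC-4550 in Molm-14. It had 33.8, 51.8 and 40.2 CPM with DMSO and 23.8, 28.6 and 30.7 CPM with RMC-4550 in MV4-11 and 44.4, 44.9 and 44.3 CPM with DMSO and 13.6, 13.9 and 13.7 CPM with RMC-4550 in SKNO-1. Its change was more negative than that of LIG1 in Molm-14 and SKNO-1, and less negative in MV4-11. That order in MV4-11 was reversed under 10% mitochondrial reads, with -0.81 for FEN1 and -0.72 for LIG1. FEN1 changed by -1.54 ± 0.13, -0.58 ± 0.13 and -1.70 ± 0.13 and LIG1 by -0.54 ± 0.09, -0.78 ± 0.09 and -1.06 ± 0.09 (limma adjusted p for LIG1 1.2e-04, 1.8e-05 and 2.5e-07). LIG1 went from 90.6, 91.6 and 100.2 to 61.7, 73.9 and 59.6 CPM in Molm-14 and from 136, 131 and 128 to 63.8, 64.9 and 60.5 CPM in SKNO-1. FEN1 overlaps exons of FADS2 on the same strand and of TMEM258 on the opposite strand, and both were more abundant.

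RPA coats single-stranded DNA in replication and repair alike. RPA3, the smallest subunit, fell in every line (-0.73 ± 0.14, -0.47 ± 0.14 and -0.93 ± 0.14, limma adjusted p 5.3e-04, 0.033 and 1.2e-04). RPA1 fell in Molm-14 and SKNO-1 (-0.63, -0.15 and -0.63 in the 3 lines). RPA2 had the smallest mean change, and it was called only in SKNO-1, where it went from 93.7, 98.6 and 97.98 to 76.3, 74.04 and 74.4 CPM. In Molm-14 its values were 57.6, 55.8 and 59.7 CPM with DMSO and 58.8, 38.6 and 54.2 CPM with RMC-4550, and the groups overlapped. Its log2 changes were -0.21 ± 0.12, -0.11 ± 0.12 and -0.37 ± 0.12. RPA1 lost its call in Molm-14 without treated replicate 2 (-0.45) and in SKNO-1 on leaving out any 1 SKNO-1 library other than treated replicate 1 (-0.60 to -0.64). RPA2 lost its call in SKNO-1 on leaving out any 1 SKNO-1 library (-0.36 to -0.39) and gained one in Molm-14 without treated replicate 1 (-0.33). RPA3 lost its call in MV4-11 on leaving out DMSO replicate 2 or 3 or any 1 treated library (-0.40 to -0.53).

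At the fork, claspin (CLSPN) carries the checkpoint signal to CHK1, and TIMELESS and TIPIN form the complex that couples helicase and polymerase. CLSPN was read at 36.1, 36.97 and 34.3 CPM with DMSO and 10.3, 18.3 and 13.9 CPM with RMC-4550 in Molm-14. It was at 37.3, 30.2 and 38.7 CPM with DMSO and 19.01, 14.1 and 14.5 CPM with RMC-4550 in MV4-11 and at 19.2, 19.9 and 20.2 CPM with DMSO and 4.67, 4.31 and 3.36 CPM with RMC-4550 in SKNO-1. The treated SKNO-1 libraries were the lowest of all. CLSPN changed by -1.38 ± 0.18, -1.16 ± 0.18 and -2.27 ± 0.18 (limma adjusted p 1.9e-05, 3.9e-04 and 2.1e-07). TIMELESS, which had the smallest mean change of the role, changed by -1.03 ± 0.10, -0.61 ± 0.10 and -1.13 ± 0.10.

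TIPIN had its largest change in Molm-14. In Molm-14 it went from 15.3, 15.5 and 15.4 to 5.96, 5.25 and 5.49 CPM. In SKNO-1 it went from 11.7, 10.1 and 11.3 to 7.77, 5.85 and 6.48 CPM, and in MV4-11 from 12.3, 12.7 and 12.8 to 8.77, 8.91 and 7.31 CPM. No groups overlapped. TIPIN changed by -1.47 ± 0.12, -0.60 ± 0.12 and -0.73 ± 0.12 (limma adjusted p 1.6e-07, 0.0029 and 2.9e-04).

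CHAF1A and CHAF1B are subunits of the chaperone that deposits histones behind the fork, and UHRF1 recruits DNMT1 to newly copied DNA. CHAF1B had the largest mean change of the role. It was at 27.1, 27.6 and 27.8 CPM with DMSO against 10.6, 8.84 and 11.4 CPM with RMC-4550 in Molm-14, at 19.05, 23.6 and 21.2 CPM with DMSO against 11.9, 12.4 and 13.7 CPM in treated MV4-11 and at 20.3, 20.7 and 20.5 CPM with DMSO against 5.88, 4.78 and 5.56 CPM in treated SKNO-1. Its partner CHAF1A had the smallest mean change. CHAF1B changed by -1.43 ± 0.11, -0.74 ± 0.11 and -1.92 ± 0.11 and CHAF1A by -1.17 ± 0.10, -0.39 ± 0.10 and -0.86 ± 0.10. Without treated replicate 1, CHAF1A in MV4-11 was not called (-0.33). Exons of CHAF1A overlap UBXN6 on the opposite strand and those of CHAF1B overlap MORC3 on the same strand. UBXN6 and MORC3 were each more abundant than the gene they overlap. UHRF1 was at 46.3, 47.5 and 51.3 CPM with DMSO and 20.4, 19.3 and 19.96 CPM with RMC-4550 in Molm-14. In MV4-11 it was at 57.3, 61.3 and 57.6 CPM with DMSO and 36.02, 38.7 and 36.6 CPM with RMC-4550, and in SKNO-1 at 60.99, 58.8 and 57.7 CPM with DMSO and 18.9, 18.6 and 16.8 CPM with RMC-4550. UHRF1 spread little within each group and changed by -1.28 ± 0.07, -0.66 ± 0.07 and -1.71 ± 0.07 (limma adjusted p 4.7e-09, 1.9e-05 and 6.2e-10).

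Other genes of the same pathways were counted from lists. Among 20 tested further replication genes there were 14 falls for Molm-14, 11 for MV4-11 and 14 for SKNO-1, and 1, 0 and 1 rose. The 3 with the largest mean change were ASF1B, a histone chaperone (-1.53, -1.05 and -1.99), WDHD1, a fork scaffold (-1.57, -0.82 and -1.94), and TICRR, an origin firing factor (-1.47, -1.07 and -1.67). The gene that rose was POLD4, the fourth subunit of polymerase delta, with log2 changes of 0.61, 0.33 and 0.46, not called in MV4-11, and it was named after its values were seen. Of 17 other E2F and RB pathway genes, 14, 7 and 13 fell and 0 rose, and medians were -0.90, -0.38 and -0.83. Under 10% mitochondrial reads the medians were -0.69 for Molm-14 and -0.67 for MV4-11. CDC25A, a CDK-activating phosphatase and E2F target, changed by -2.16, -0.82 and -2.16, and the transcription factor MYBL2 by -1.88, -0.91 and -2.21. The repressor E2F7 had log2 changes of -2.43, -0.89 and -1.77 and was not called in MV4-11. RB1 had log2 changes of -0.61, -0.27 and -0.27 and was called in Molm-14 only, again named after its values were seen. All 20 mitosis genes fell in Molm-14 and in SKNO-1 and 17 in MV4-11, with medians of -1.13, -0.86 and -1.28. Those for Molm-14 and MV4-11 were -1.06 and -0.92 under 10% mitochondrial reads. NUF2, a kinetochore protein, changed by -1.51, -1.43 and -1.56, the mitotic kinase CDK1 by -1.35, -1.10 and -1.61 and the checkpoint kinase TTK by -1.42, -0.91 and -1.50. Mitotic genes fell in the same comparisons as the replication genes, with a median in MV4-11 that was more negative than that of the 54 genes.

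The 4 libraries with many mitochondrial reads had lower levels of a subset of the 54 genes than the other libraries of their own group. MCM2 differed most, with log2 differences of -2.80 in MV4-11 with DMSO, -1.81 in MV4-11 with RMC-4550 and -2.999 in Molm-14 with RMC-4550. ORC1 (-1.46, -1.23 and -1.25), PRIM1 (-1.12, -0.65 and -1.40) and CDT1 (-0.91, -0.69 and -1.01) followed. POLA2 (0.41, 0.18 and 0.97), CLSPN (0.33, 0.41 and 0.61) and ORC6 (0.29, 0.51 and 0.48) were higher in the same libraries. Within the same complexes as MCM2 and ORC1, MCM5 (-0.20, -0.17 and -0.16) and ORC3 (0.11, 0.10 and 0.11) had differences near 0. Over the 54 genes the differences in the 3 groups had Pearson r of 0.92, 0.92 and 0.85 with each other, beside 0.72, 0.67 and 0.63 over all 16289 genes in the fit. The genes of 1 difference share their libraries and are not independent, and all 3 differences set high against low mitochondrial share. The differences had r of -0.04, -0.21 and 0.00 with the log2 length of the longest transcript. The share of genes more than 2-fold lower in those libraries was 5.56%, 3.70% and 7.41% of the 54 and 5.32%, 3.03% and 8.27% of all genes.

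**Figure D3:**
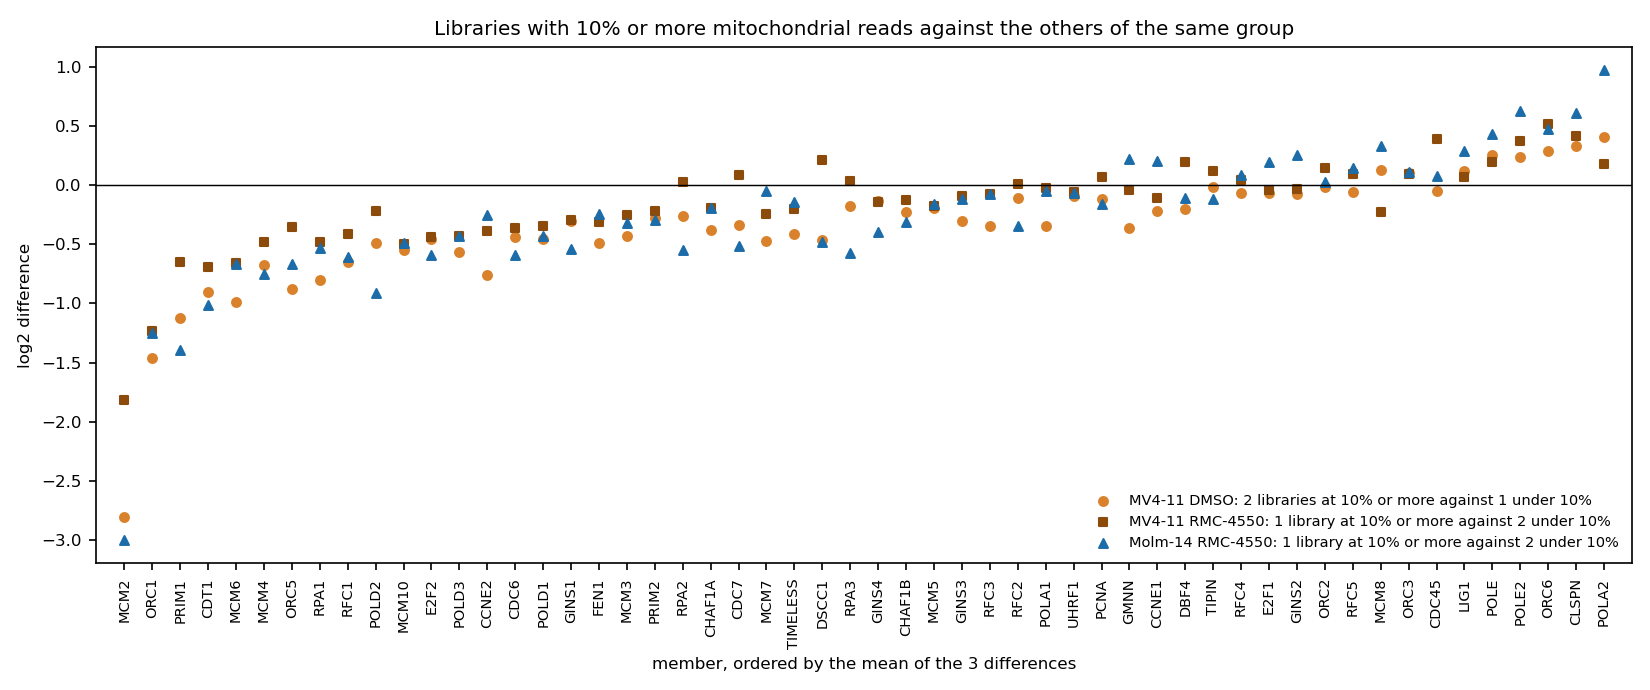
Log2 difference between libraries with 10% or more mitochondrial reads and the other libraries of the same group, for each of the 54 genes, ordered by the mean of the 3 differences. MCM2 lies at -1.81 to -2.999 and POLA2 at 0.18 to 0.97, and the 3 groups follow a similar order.

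These libraries mattered most for MV4-11, where 2 of 3 DMSO libraries and 1 of 3 treated libraries were of this kind. Among the MV4-11 libraries under 10%, all 54 genes had a negative change and the median was -0.76. Among those over 10%, 51 were negative and the median was -0.61. In a fit of the 14 libraries under 10%, 52 genes fell in MV4-11, 52 in Molm-14 and 53 in SKNO-1, beside 18.1%, 31.2% and 32.1% of all genes tested, and 50 fell in all 3. That fit leaves 1 DMSO library in MV4-11, which is assumed to vary like the other groups. The share of all genes that fell in all 3 lines was not counted in it. The 12 genes that gained a call in MV4-11 were ORC1 (-0.88), ORC2 (-0.26), CDT1, MCM2, MCM6, PRIM1 (-0.75), PRIM2 (-0.34), POLD1, POLD2, POLD3, RPA1 (-0.53) and RPA2 (-0.30). ORC5 and RFC1 in MV4-11, ORC2 and RPA2 in Molm-14 and ORC5 in SKNO-1 were not called. Under 10% mitochondrial reads the median was -0.76 for MV4-11, -1.10 for Molm-14 and -1.24 for SKNO-1. The MV4-11 median rests on 1 DMSO library. The part that the mitochondrial share plays in the smaller MV4-11 changes was not tested.

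Responses were compared between lines by the difference of their log2 changes within the same fit. Over all libraries 28 genes differed between Molm-14 and MV4-11, both labelled FLT3-ITD, 19 between SKNO-1 and MV4-11 and 8 between SKNO-1 and Molm-14. Under 10% mitochondrial reads that order was reversed, with 19, 25 and 28 genes. Between Molm-14 and MV4-11, the fall was larger in Molm-14 for 28 of the 54 genes and smaller for 0, beside 9.11% of all genes tested with a more negative and 10.3% with a less negative change in Molm-14. The median difference was -0.58. POLD2 (difference -1.41 ± 0.27, limma adjusted p 0.0026), PCNA (-0.57 ± 0.10, adjusted p 0.0019) and CHAF1A (-0.78 ± 0.14, adjusted p 0.002) were among them. Under 10% mitochondrial reads, 19 genes were called, all more negative in Molm-14, beside 7.50% of all genes (9.35% less negative), and the median difference was -0.36. Of those 19, 18 were also called over all libraries. Leaving out single libraries ended 12 of the 28 calls at least once (ORC5, MCM6, MCM7, CDC45, GINS2, GINS3, CDC7, PRIM1, POLD1, POLD3, RFC3 and CCNE2). The count was 17 without MV4-11 DMSO replicate 1 or 3 and 38 without replicate 2, with no share of all genes given for these settings.

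SKNO-1 fell more than MV4-11 for 19 genes and less for 0, beside 1.17% and 0.482% of all genes tested. UHRF1 (-1.05 ± 0.10, limma adjusted p 1.4e-04), CHAF1B (-1.18 ± 0.16, adjusted p 9.9e-04), E2F1 (-1.08 ± 0.15, adjusted p 0.0013) and CDC45 (-1.02 ± 0.16, adjusted p 0.0029) had the lowest adjusted p. Of the helicase genes, MCM3, MCM4, MCM5, MCM7, CDC45, GINS1 and GINS2 were called. Of the licensing genes 0 of 8 were called over all libraries, and CDC6 was called under 10% mitochondrial reads (-0.50, limma adjusted p 0.013). Under 10% mitochondrial reads, 25 were called, all more negative in SKNO-1 (3.56% of all genes, and 2.38% less negative) and including all 19. The calls of MCM8, PCNA, RFC4, CLSPN and E2F2 were lost on leaving out at least 1 library, with differences of -0.43 (RFC4) to -1.18 (CLSPN). Without MV4-11 DMSO replicate 2, the library with few mitochondrial reads, 31 genes were called, with no share of all genes given for that setting.

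Between SKNO-1 and Molm-14, of the 54 genes, 7 fell more and 1 fell less in SKNO-1, beside 6.74% and 4.13% of all genes tested, and the median difference was -0.12. MCM8 differed most, with -1.24 ± 0.21 (limma adjusted p 0.0012). CLSPN (-0.90), LIG1 (-0.52), POLA1 (-0.52), MCM5 (-0.45), UHRF1 (-0.43) and RFC4 (-0.42) also fell more in SKNO-1. TIPIN alone fell less in SKNO-1 (0.74 ± 0.17, adjusted p 0.0098). On leaving out single libraries of these 2 lines, the calls of MCM5 (-0.38 to -0.46), POLA1 (-0.47 to -0.49) and CLSPN (-0.69 to -0.94) were lost at least once. Without the treated Molm-14 library of high mitochondrial share and the 3 such MV4-11 libraries, 28 genes differed. Of these 28, 23 fell more in SKNO-1 (18.8% of all genes did so and 11.5% fell less), among them all 6 of MCM2 to MCM7, with differences of -0.29 (MCM6) to -0.50 (MCM5). ORC5, PRIM1, POLD2, TIPIN and CHAF1A fell less in SKNO-1.

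**Figure D4:**
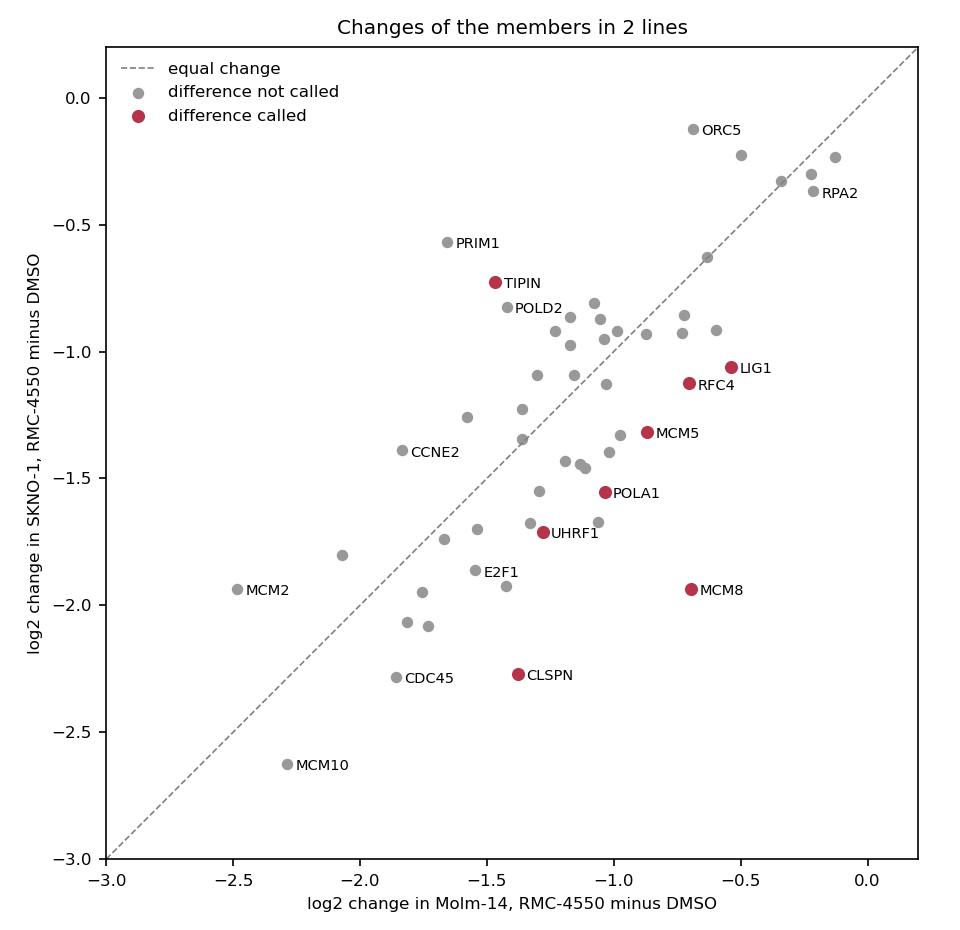
Log2 change in SKNO-1 (vertical axis) against that in Molm-14 (horizontal axis) for the 54 genes, each from 3 libraries per group. Red points are the 8 genes whose changes differed between the lines, and the dashed line marks equal change. MCM8 lies farthest below the line among the red points and TIPIN lies above it.

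Without the inhibitor, many of these genes differed in level between the lines. Over all libraries and counting both directions, they did so no more often than all genes tested. Against Molm-14, SKNO-1 had 8 genes higher and 25 lower, beside 32.5% and 32.6% of all genes tested. CDT1 (log2 difference 0.91), POLD1 (0.88) and RPA2 (0.75) were higher in SKNO-1, and CCNE2 (-1.20), TIMELESS (-1.01) and GMNN (-0.92) were lower. Against MV4-11, SKNO-1 had 14 higher and 7 lower (19.4% and 22.2% of all genes), and Molm-14 had 27 higher and 2 lower (27.9% and 26.1%). The 2 lower in Molm-14 were LIG1 (-0.33) and UHRF1 (-0.28). Among libraries under 10% mitochondrial reads, which leave MV4-11 1 DMSO library, SKNO-1 against Molm-14 had 14 higher and 30 lower (39.6% and 40.8% of all genes). There SKNO-1 against MV4-11 had 13 higher and 15 lower (16.1% and 24.4%), and Molm-14 against MV4-11 had 14 higher and 7 lower (23.7% and 26.6%). E2F1 and CCNE1 were not called in any of the 3 comparisons, with differences between -0.16 and 0.06. For 27 of the 54 genes MV4-11 had the middle mean of the 3 lines, and when only its DMSO replicate 2, the one under 10% mitochondrial reads, was taken, for 41. Over all 16289 genes in the fit, the shares were 52.8% and 70.5%.

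Levels were compared between genes only per kilobase of the longest transcript. With DMSO, PCNA had the highest level per kilobase in every line, at 130.5 CPM per kb for Molm-14, 109 for MV4-11 and 113 for SKNO-1. MCM4 followed in Molm-14 (85.3) and MV4-11 (60.5), and CDT1 in SKNO-1 (91.0). The lowest were POLA2 in Molm-14 (1.69) and MCM8 in SKNO-1 (1.41). Among the GINS genes, which enter the helicase in equal number as proteins, levels ran from 4.06 CPM per kb for GINS4 to 9.004 for GINS1 in Molm-14 with DMSO.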

How the data were processed

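RNA-seq of 18 cultures (3 lines, 2 treatments, 3 biological replicates each) was analysed from 1 deposited table of 40184 gene IDs, of which 40069 had a symbol. Per the submitters' processing notes, FastQC, STAR, limma and the GRCh38 build were used, with versions not given in the sources used here. The deposited values are log2 CPM made by the authors, with 0.5 reads added and library totals scaled. Low values, under 200 reads, gave whole reads within 0.05 for 100% of them in every library, and recovered totals were 17434810 to 19959917 reads. Arithmetic CPM means and SDs are printed beside fits on the deposited log2 scale.

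Genes with at least 1 CPM in 3 or more libraries entered the fit (16289), and those with 3 or more such libraries within the lines compared were tested. A limma model (version 3.58.1, R 4.3.3) with 1 term per group and an intensity trend gave log2 changes, standard errors and Benjamini-Hochberg adjusted p-values over all genes tested, called under 0.05. The script was checked on simulated data. Because the unit is log2, voom on the recovered reads stood in for a count test as an alternative. Other alternatives were the pseudocount, filters, scaling, separate fits per line, a replicate block, the mitochondrial share and leaving out each library. Genes given with full statistics were MCM2 to MCM7, CDC45, CDT1, GMNN, CDC6, PCNA and the E2F and cyclin E genes, the largest and smallest mean change of each role, and genes whose response differed between lines. The members and lists were chosen with earlier results of these data known.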

Additional observations from a re-analysis of the deposited data

Results flagged for a closer look

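Values in this section are differences of log2 changes (RMC-4550 minus DMSO) between 2 lines, each with a limma adjusted p under 0.05 for the difference itself. They single out genes whose response was not the same in both lines. No cause was tested, and the mitochondrial share of the libraries differs between the lines as described above.

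The response of SKNO-1 minus that of Molm-14 was different for 8 genes: MCM5 (-0.45), MCM8 (-1.24), POLA1 (-0.52), RFC4 (-0.42), LIG1 (-0.52), CLSPN (-0.90), TIPIN (0.74) and UHRF1 (-0.43). The negative values are larger falls in SKNO-1, and TIPIN is the only positive one.

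For SKNO-1 minus MV4-11, 19 genes differed, all with a larger fall in SKNO-1. These were MCM3 (-0.97), MCM4 (-1.42), MCM5 (-0.70), MCM7 (-0.93), CDC45 (-1.02), GINS1 (-1.07), GINS2 (-0.87), MCM10 (-1.59), MCM8 (-0.89), POLA1 (-0.81), PCNA (-0.50), RFC3 (-0.74), RFC4 (-0.45), FEN1 (-1.12), CLSPN (-1.11), CHAF1B (-1.18), UHRF1 (-1.05), E2F1 (-1.08) and E2F2 (-1.12).

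For Molm-14 minus MV4-11, 28 genes differed, all with a larger fall in Molm-14. These were ORC5 (-0.96), CDC6 (-0.99), GMNN (-0.70), MCM3 (-0.67), MCM4 (-1.17), MCM6 (-1.18), MCM7 (-0.55), CDC45 (-0.59), GINS1 (-0.88), GINS2 (-0.53), GINS3 (-0.57), MCM10 (-1.25), CDC7 (-0.71), PRIM1 (-1.44), POLD1 (-0.68), POLD2 (-1.41), POLD3 (-0.77), PCNA (-0.57), RFC2 (-0.60), RFC3 (-0.48), DSCC1 (-1.05), FEN1 (-0.95), TIPIN (-0.87), CHAF1A (-0.78), CHAF1B (-0.68), UHRF1 (-0.62), E2F1 (-0.76) and CCNE2 (-0.99).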

How the results depend on the processing

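The count of the 54 genes called lower stayed within 1.5 times under every alternative in Molm-14 (46 to 52 on leaving out single libraries) and SKNO-1 (44 to 51). In MV4-11 it was 34 to 41 on leaving out single libraries and 22 in a separate fit per line. That fit has fewer residual degrees of freedom and takes the spread from the line alone. The part of either in the lower count was not tested. Over all alternatives, 44 of 52 calls in Molm-14, 22 of 40 in MV4-11 and 43 of 50 in SKNO-1 were kept. The SKNO-1 median of -1.24 moved to -1.10 with log2(CPM + 1), -1.18 with median-ratio scaling and -1.16 with quantile normalization, and to between -1.27 and -1.17 on leaving out single libraries.

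Differences between lines depended more on the settings. SKNO-1 against Molm-14 gave 3 genes without a filter on low values, 22 with the mitochondrial share as a covariate, 28 with libraries under 10% mitochondrial reads and 5 to 10 on leaving out single libraries. SKNO-1 against MV4-11 gave 32 with the covariate and 15 to 31 on leaving out single libraries, and Molm-14 against MV4-11 gave 17 to 38. DMSO levels of Molm-14 against MV4-11 gave 19 (without MV4-11 DMSO replicate 3) to 36 genes. Of the 8, 19 and 28 differences, 2, 14 and 15 were kept throughout.

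Direction reversed only for changes that had not been called. In Molm-14, ORC2 was 0.0146 with quantile normalization. In MV4-11, ORC5 was -0.00797 with the covariate and -0.20 under 10%, MCM2 -0.83 and -0.98, and RFC1 -0.19 and -0.25. POLD2 was 0.0287 with median-ratio scaling and 0.0103 with quantile normalization. On leaving out single libraries in MV4-11, the ranges were -0.56 to 0.18 for ORC1, -0.42 to 0.0471 for CDT1, -0.29 to 1.22 for MCM2, -0.45 to 0.15 for PRIM1, -0.12 to 0.15 for POLD2, -0.11 to 0.26 for RFC1 and -0.32 to 0.11 for RPA1. The cause of these moves was not tested.

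Deviations of same-numbered samples from their group means correlated at -0.05, -0.04 and 0.00 in Molm-14. They correlated at 0.39, 0.59 and -0.40 in MV4-11 and 0.13, 0.01 and 0.04 in SKNO-1. Different-numbered deviations in MV4-11 correlated at -0.72 to 0.64. The 3 deviations of a group sum to 0, so these values constrain each other. They cannot tell whether replicate numbers pair the samples. With the replicate number as a block, 51, 39 and 48 genes were called in the 3 lines in the same order, and 7, 16 and 25 differences between lines. With 3 cultures per group, standard errors in the ring, each pooled over the groups, ran from 0.087 (MCM5) to 0.76 (MCM2).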
